A study of Mus musculus with 12 samples.

Results

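The 10 genes described here encode proteins of the nuclear lamina and nuclear envelope, namely the lamins (Lmna, Lmnb1, Lmnb2), inner nuclear membrane proteins (Emd, Lbr and Tmpo) and the SUN and nesprin proteins (Sun1, Sun2, Syne1, Syne2). They were taken by symbol from the 25171 loci of the deposited table, each symbol had 1 row, and all 10 passed the filter on low counts in every comparison. RNA was measured in 12 mouse hearts, 3 in each of 4 groups. EIIa-tg mice carried NOTCH2NLC with 98 GGC repeats at Rosa26 behind a floxed stop together with EIIa-Cre. By the paper, this cross expresses the insertion in all tissues from the embryonic stage. The EIIa-tg mice were 30 days old. EIIa-ctl littermates carried no EIIa-Cre and were of the same age. By their labels, Myh6-tg mice carried the same insertion and Myh6-creERT2, a Cre made in cardiomyocytes and activated by tamoxifen, and were given 3 tamoxifen injections of 75 mg/kg from day 60 and collected at day 90. Myh6-ctl mice had the same genotype by their labels and received corn oil. By the labels the EIIa groups differed by the presence of EIIa-Cre and the Myh6 groups by tamoxifen, and age and line differed between the models together.

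The lamina is a mesh of A-type lamins (lamin A and lamin C, both from Lmna) and B-type lamins (from Lmnb1 and Lmnb2) that lines the inner nuclear membrane. Emerin (Emd), the lamin B receptor (Lbr) and the LAP2 proteins (Tmpo) tie this mesh and chromatin to the membrane. SUN proteins cross the inner membrane and bind nesprins (Syne1, Syne2) in the outer membrane, and together they form the LINC complex, which couples the nucleus to the cytoskeleton. Variants of LMNA and EMD cause cardiomyopathy and Emery-Dreifuss muscular dystrophy in humans, and stiff, contracting tissues such as heart are known for high A-type lamin.

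Lmna and Emd were the members called higher in transgenic hearts (edgeR adjusted p under 0.05), and they were called in both models. Beside these 2 members of 10, 17% of all genes were called in either direction in EIIa-tg and 18.3% in Myh6-tg. The EIIa-tg call of Lmna and both Emd calls were lost in some fits that left out 1 heart. Lmna was 1.95-fold higher in EIIa-tg and 2.72-fold higher in Myh6-tg hearts than in the respective controls, and Emd was 1.33-fold and 2.06-fold higher. None of the 10 genes fell at an adjusted p under 0.05. The B-type lamin genes, Lbr, Tmpo, Sun1, Sun2 and both nesprin genes passed the test in neither model in the main edgeR fit.

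The regions upstream of Lmna and Emd are shown because these genes rose together. Each is the 250 bases before a RefSeq start on GRCm38.p6, read along the gene's strand, at chr3:88503353-88503602 (minus strand) and chrX:74254437-74254686 (plus strand). Capitals mark GGGCGG, the core of a GC box, or its reverse complement, and CCAAT or its reverse complement.
Lmna: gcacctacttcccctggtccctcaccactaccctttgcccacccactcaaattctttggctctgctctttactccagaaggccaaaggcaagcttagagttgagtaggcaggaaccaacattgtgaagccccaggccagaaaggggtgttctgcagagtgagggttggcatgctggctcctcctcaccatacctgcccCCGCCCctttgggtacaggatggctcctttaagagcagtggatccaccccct
Emd: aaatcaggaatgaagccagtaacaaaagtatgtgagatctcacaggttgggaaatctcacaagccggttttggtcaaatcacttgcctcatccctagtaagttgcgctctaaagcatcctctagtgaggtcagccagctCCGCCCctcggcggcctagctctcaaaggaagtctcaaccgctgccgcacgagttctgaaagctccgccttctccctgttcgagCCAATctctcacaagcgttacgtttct

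Both strands of the windows from 250 bases before to 50 bases after a start were searched for the GC box core GGGCGG, the CCAAT box, the AP-1 motif TGACTCA and the CArG box. RefSeq windows were read for 9 of the 10 members. These genes had 15 windows, of which 9 held GGGCGG, against 35.7% of all 32851 windows, and 7 held CCAAT, against 37.4%. The 9 with GGGCGG were the first window of each gene, and 0 of the 6 later windows held it. Lmna had 1 TGACTCA, 40 bases after its start, a motif present in 5.20% of all windows. No first window held a CArG box, which was found in 1.63% of all windows. Lmna also has a start further into the gene, with a window that held CCAAT and no GGGCGG. These matches describe letters and not bound sites.

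Totals of the 12 hearts ranged from 38343106 to 50969834 counts, so that the least counted member, Lmnb1, still had at least 135 counts in every heart. Values per heart are given as TMM-scaled CPM, which are counts scaled to a common library total after an adjustment for composition. This adjustment matters here because the protein-coding mitochondrial genes took 15.5% to 18.6% of counts in Myh6-tg and 28.5% to 38.3% in the other hearts. The cardiomyocyte markers were abundant in all hearts, although the extraction text names brain. Esr1, whose ligand-binding part is used in creERT2, stood at 1031 to 2331 CPM in the 3 hearts labelled Myh6-ctl and at no more than 2.52 CPM in the other 9, including those labelled Myh6-tg, which carry creERT2 by the same labels. The Myh6 groups therefore differed in Esr1 reads as well as in the labelled tamoxifen, and the deposited tables do not give the reason. In the Myh6 comparison, effects of tamoxifen or the induced transgene cannot be told apart from effects of this difference. The transgene itself was not analysed here.

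Across genes, levels were compared in FPKM, which the authors scaled to length. In EIIa-ctl hearts Lmna had the highest level at 29.9 ± 2.31 FPKM (SD, n = 3). It was followed by Sun2 with 16.5 ± 1.49, Emd with 15.9 ± 1.78, Tmpo with 14 ± 0.321, Sun1 with 11.2 ± 1.08 and Lbr with 8.68 ± 1.05 FPKM. Sun2 and Emd overlapped in their ranges, whereas the other steps down to Lbr did not. Syne2 had 4.17 ± 0.948 FPKM, and Lmnb2, Syne1 and Lmnb1 shared the lowest place with 2.02 ± 0.460, 1.95 ± 0.337 and 1.85 ± 0.432 FPKM and overlapping ranges. The order of the first 7 places was kept in the other groups except that Emd stood above Sun2, and the last 3 genes changed places among themselves. FPKM of Syne1 and Syne2 depends on the length assigned to genes that make both giant and short nesprins.

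**Figure D1:**
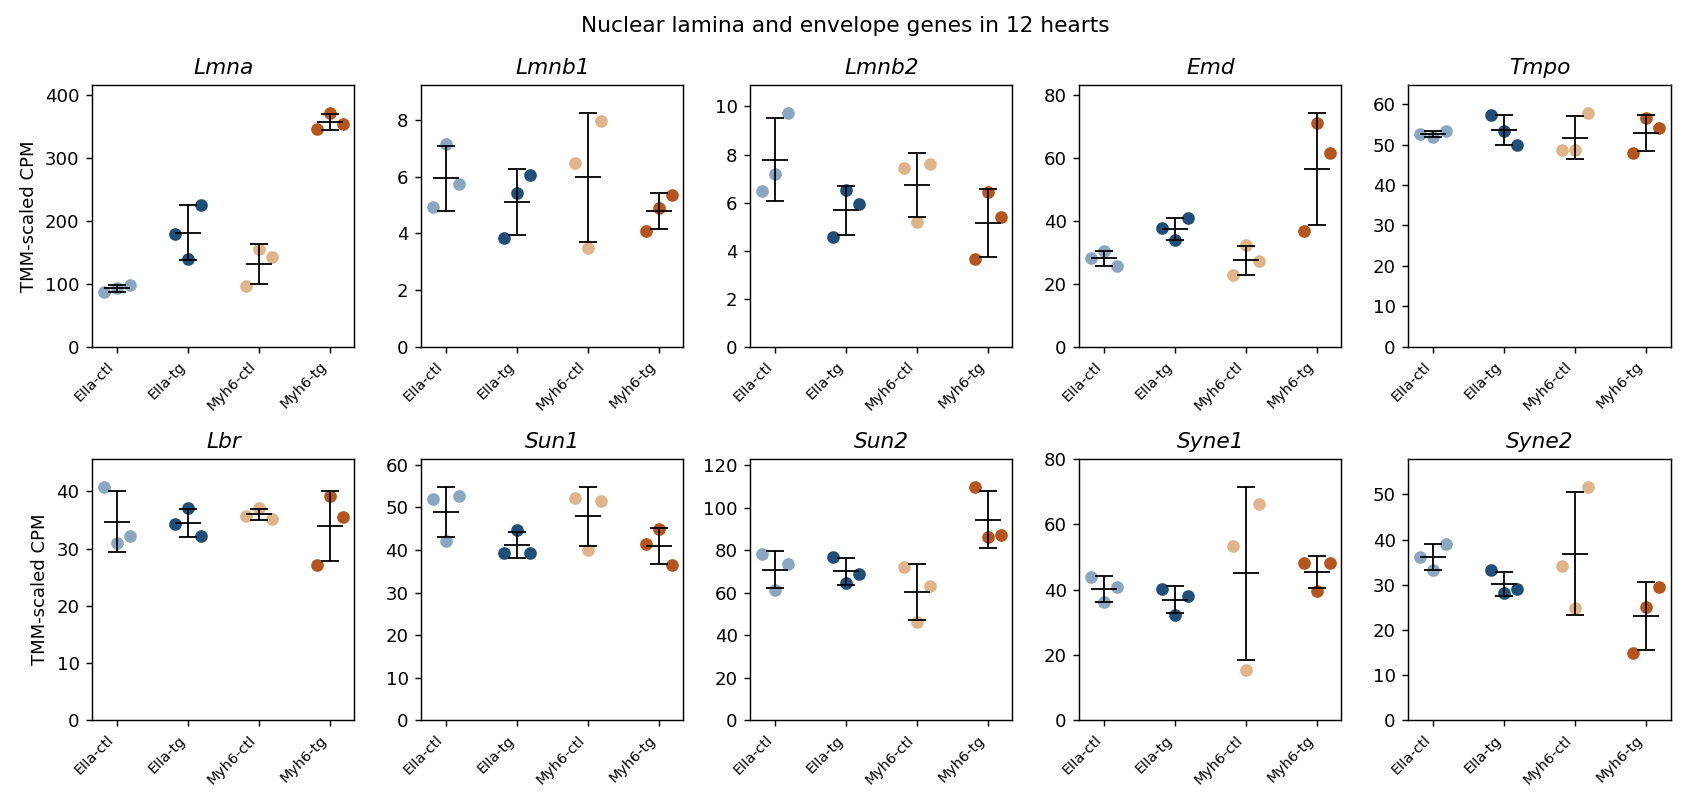
TMM-scaled CPM of the 10 genes (y axis, from 0, a scale per gene) in each of the 12 hearts (points, replicates 1 to 3 from left to right), by group. Black bars give the mean and SD (n = 3). All 3 Myh6-tg hearts lie between 347 and 372 CPM for Lmna, above the other 9 hearts, while the groups overlap for both B-type lamin genes.

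Lmna, which encodes lamins A and C, lies on the minus strand of chr3:88480147-88509956 (GRCm38). It stood at 87.2, 93.5 and 97.9 CPM in EIIa-ctl hearts and at 179, 140 and 226 CPM in EIIa-tg hearts. In Myh6-ctl hearts it stood at 96.1, 156 and 143 CPM, and in Myh6-tg hearts at 347, 372 and 354 CPM. In both models every transgenic heart lay above every control, the Myh6-tg hearts were close to each other, and the EIIa-tg hearts were spread, with replicate 3 highest.

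By edgeR's quasi-likelihood test Lmna rose by a log2 fold change of 0.96 (SE 0.161, adjusted p = 0.0166) in EIIa-tg and of 1.44 (SE 0.228, adjusted p = 0.00795) in Myh6-tg hearts. The Myh6-tg change also met the rule of an adjusted p under 0.01 with at least 2-fold, as did 3.97% of all genes tested there. In EIIa-tg 0% of genes met that rule by edgeR, while 836 genes met it with DESeq2, 344 with no filter on low counts and 921 without EIIa-tg replicate 2. The Myh6-tg call was kept under each of the 17 alternatives, with log2 fold changes from 1.26 to 2.05 and adjusted p of at most 0.0352. The EIIa-tg call was lost without any 1 of 3 hearts, where the log2 fold change stayed between 0.92 and 1.00. These were EIIa-ctl replicates 1 (adjusted p = 0.0775) and 3 (adjusted p = 0.0785) and EIIa-tg replicate 1 (adjusted p = 0.0566). In the same order, these fits called 0, 1 and 0 of all genes tested.

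Emd encodes emerin, which binds lamins and the chromatin protein BAF, and lies on the plus strand of chrX:74254687-74261548. It stood at 28.2, 30.5 and 25.7 CPM in EIIa-ctl and at 37.7, 33.9 and 40.8 CPM in EIIa-tg hearts. It stood at 22.8, 32.2 and 27.3 CPM in Myh6-ctl and at 36.7, 71.2 and 61.5 CPM in Myh6-tg hearts. No control heart reached a transgenic heart of its own model, and Myh6-tg replicate 1 was well below the other two. Replicate 1 of each group was also the heart with Y-linked counts (4224 to 7307, against at most 2 in the others). The part of sex in the Emd values was not tested.

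The log2 fold change of Emd was 0.41 (SE 0.112, edgeR adjusted p = 0.0416) in EIIa-tg and 1.04 (SE 0.27, adjusted p = 0.0352) in Myh6-tg hearts. Leaving out a heart ended most of these calls, while the log2 fold change stayed between 0.35 and 0.47 in EIIa-tg and between 0.84 and 1.27 in Myh6-tg. In EIIa-tg the call was held only without EIIa-tg replicate 2, and the adjusted p was 0.0515 to 0.147 without any 1 of the other 5 hearts (EIIa-ctl replicates 1, 2 and 3 and EIIa-tg replicates 1 and 3). Few genes of any kind were called in some of these fits, 0 without EIIa-ctl replicate 1 or without EIIa-tg replicate 1 and 1 without EIIa-ctl replicate 3. In Myh6-tg it was held only without Myh6-tg replicate 1, where adjusted p = 0.00437, and the adjusted p was 0.0642 to 0.132 without any 1 of the other 5 hearts (Myh6-ctl replicates 1, 2 and 3 and Myh6-tg replicates 2 and 3). The EIIa-tg call of Emd was also lost with all 12 hearts in one edgeR fit (adjusted p = 0.287), which called 1.43% of all genes. Of the exon bases of Emd, 343 are shared with the pseudogene Gm14686.

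These 2 called members of 10 compare with 8.65% of all tested genes called higher and 8.30% called lower in EIIa-tg hearts, and with 8.96% higher and 9.38% lower in Myh6-tg hearts. In either direction 17% of all genes were called in EIIa-tg and 18.3% in Myh6-tg, and 2 of 10 is near these shares. Groups did not overlap for 2 members in EIIa-tg, where this held for 41.1% of all genes tested, and for 3 members in Myh6-tg, where it held for 40.2%. The median log2 fold change of the 10 members was -0.08 in EIIa-tg and -0.04 in Myh6-tg hearts, beside 0.02 and 0.03 over all genes. For the list the shares without overlap, 2 and 3 of 10, were below those of all genes.

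**Figure D2:**
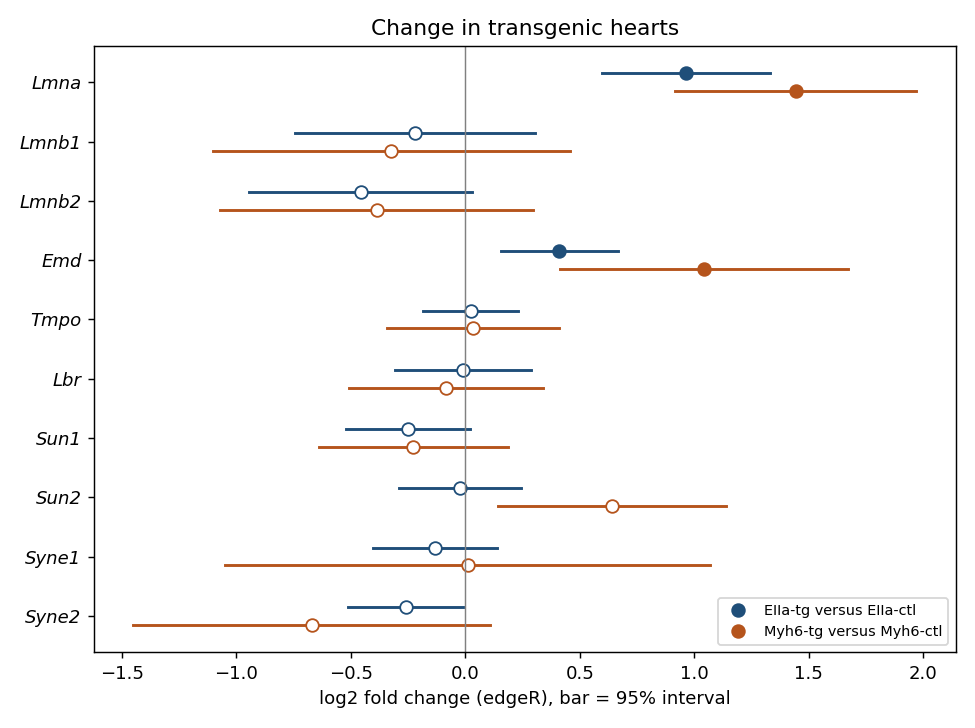
Log2 fold change (x axis) of each gene (y axis) in EIIa-tg (blue) and Myh6-tg hearts (orange) against their controls, with 95% intervals from edgeR as bars and filled points for an adjusted p under 0.05. The filled points are Lmna and Emd in both models, and the Sun2 interval in Myh6-tg runs from 0.14 to 1.14 with an open point.

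The B-type lamin genes had low and variable values. In the EIIa model Lmnb1 had 4.92, 7.17 and 5.73 CPM in controls and 3.82, 5.44 and 6.06 CPM in transgenic hearts. In the Myh6 model it had 6.49, 3.50 and 7.95 CPM in controls and 4.10, 4.90 and 5.34 CPM in transgenic hearts. The groups of each model overlapped. Its log2 fold change was -0.22 (95% interval -0.74 to 0.31) in EIIa-tg and -0.32 (-1.10 to 0.46) in Myh6-tg hearts. Both intervals hold no change as well as a fall or a rise.

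In the EIIa model Lmnb2 had 6.47, 7.17 and 9.73 CPM in controls and 4.56, 6.54 and 5.92 CPM in transgenic hearts. In the Myh6 model it had 7.44, 5.20 and 7.59 CPM in controls and 3.65, 6.42 and 5.39 CPM in transgenic hearts. The transgenic hearts were on average lower, but their ranges overlapped those of the controls. The log2 fold change was -0.46 (95% interval -0.94 to 0.03, adjusted p = 0.166) in EIIa-tg and -0.39 (-1.07 to 0.30, adjusted p = 0.398) in Myh6-tg hearts.

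Because Lmna rose and the B-type genes did not pass the test, the makeup of lamin transcripts per length was described, with no test. Lmna made up 90.1%, 87.3% and 88.4% of the summed FPKM of the lamin genes in EIIa-ctl and 96.3%, 93.1% and 96.1% in EIIa-tg hearts. It made up 89.8%, 95.6% and 91.5% in Myh6-ctl and 98.4%, 97.8% and 97.8% in Myh6-tg hearts. The share was higher in every transgenic heart than in every control of its model. Summed B-type FPKM was between 3.44 and 3.87 on average in all groups, but FPKM is not adjusted for composition. On log2(FPKM + 0.1) the median of all genes was 0.20 higher in EIIa-tg and 0.40 higher in Myh6-tg hearts. In TMM-scaled CPM the means of Lmnb1 and Lmnb2 were lower in the transgenic hearts of both models, with overlapping ranges. The ratio of Lmna to B-type FPKM went from 7.87 ± 1.17 to 21.4 ± 6.85 (SD, n = 3) in the EIIa groups. In the Myh6 groups it went from 13.8 ± 7.01 to 51.1 ± 10.4. Myh6-ctl replicate 2, at a ratio of 21.8, had the lowest B-type FPKM of all hearts at 2.18.

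**Figure D3:**
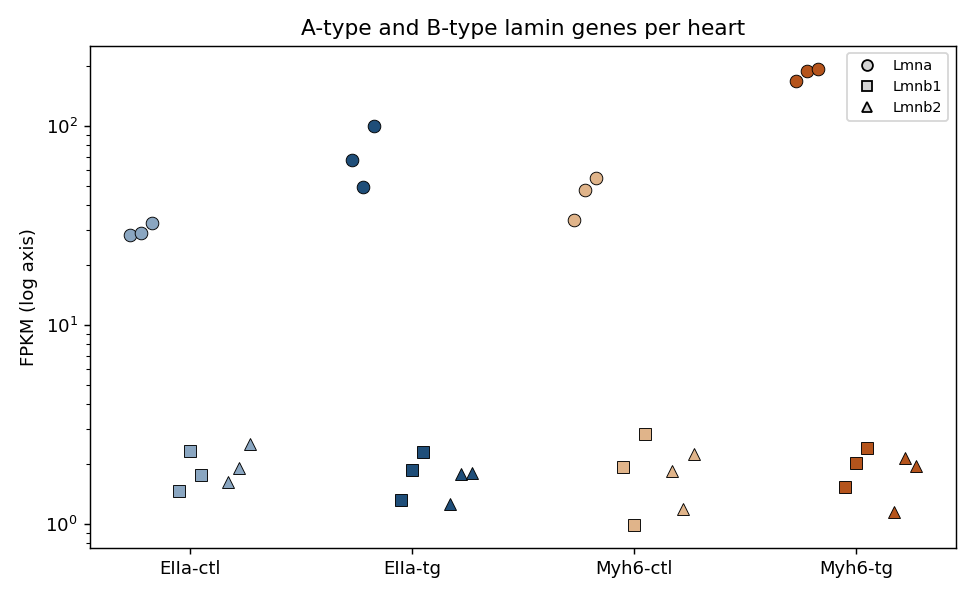
FPKM of the 3 lamin genes (y axis, log scale) in each heart by group, circles for Lmna, squares for Lmnb1 and triangles for Lmnb2. Lmna lies between 28.2 and 32.6 FPKM in EIIa-ctl and between 169 and 194 FPKM in Myh6-tg hearts, while both B-type genes stay below 3 FPKM in all 12 hearts.

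Among the other inner membrane genes, Tmpo, which encodes the LAP2 proteins, moved little between hearts. It had 51.8 to 53.3 CPM in EIIa-ctl and 49.9 to 57.4 CPM in EIIa-tg hearts, with a log2 fold change of 0.02 (95% interval -0.18 to 0.23), and the interval in Myh6-tg was -0.34 to 0.41 around 0.04. Lbr, the lamin B receptor and also a sterol reductase, ranged from 27.2 to 40.8 CPM over the 12 hearts. Its log2 fold change was -0.01 (95% interval -0.31 to 0.29) in EIIa-tg and -0.08 (-0.51 to 0.34) in Myh6-tg. Lbr shares 440 exon bases with Dnah14 on the opposite strand, and the counting is not stated to use strand.

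The SUN genes, whose proteins bind nesprins inside the envelope, did not follow each other. Sun2 had 78.2, 61.2 and 73.6 CPM in EIIa-ctl and 77.1, 64.5 and 68.8 CPM in EIIa-tg hearts. It had 72.2, 46.3 and 63.5 CPM in Myh6-ctl and 110, 86.2 and 87.1 CPM in Myh6-tg hearts, where each was above all controls. The EIIa groups overlapped throughout.

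The log2 fold change of Sun2 was -0.02 (95% interval -0.29 to 0.24) in EIIa-tg and 0.64 (SE 0.214, 95% interval 0.14 to 1.14) in Myh6-tg hearts, with an edgeR adjusted p of 0.0759. Same-numbered Myh6 hearts deviated together from their group means, though no label states a pairing. With the replicate number as a block the log2 fold change was 0.65 and Sun2 passed the test (adjusted p = 0.0396). It also passed with all 12 hearts in one fit (adjusted p = 0.016) and on FPKM or without TMM, where all genes are shifted upwards. Sun1 had a log2 fold change of -0.25 (95% interval -0.52 to 0.02) in EIIa-tg and -0.23 (-0.64 to 0.19) in Myh6-tg hearts, and 36.4 to 52.6 CPM over all hearts. The ratio of Sun2 to Sun1 FPKM was 1.47 ± 0.0557 (SD, n = 3) in the EIIa controls and 1.76 ± 0.254 in the EIIa-tg hearts, and it was 1.29 ± 0.101 in the Myh6 controls and 2.41 ± 0.411 in the Myh6-tg hearts.

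The nesprin genes are the longest of the members. In the EIIa model Syne2 had 36.2, 33.2 and 39 CPM in controls and 33.3, 28.3 and 29 CPM in transgenic hearts. In the Myh6 model it had 34.1, 24.9 and 51.7 CPM in controls and 14.9, 25.1 and 29.5 CPM in transgenic hearts. The groups of each model overlapped, in the EIIa model by the narrow margin of 33.2 to 33.3 CPM. The log2 fold change was -0.26 (unadjusted p = 0.0437, edgeR adjusted p = 0.132) in EIIa-tg and -0.67 (95% interval -1.45 to 0.11, adjusted p = 0.203) in Myh6-tg hearts.

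Syne1 had 32.3 to 44.0 CPM in the EIIa hearts and 48.3, 39.7 and 48.2 CPM in Myh6-tg hearts. The Myh6-ctl hearts were far apart at 53.3, 15.3 and 66.4 CPM, the low one being replicate 2 with 589 counts. The log2 fold change in Myh6-tg was 0.01 with a 95% interval from -1.05 to 1.07, and it was -0.40 without that heart. Deviations of each gene from its own mean over the 12 hearts were also taken on the log2 scale. In Myh6-ctl replicate 2 the median deviation was -0.168 for the 835 genes with a longest transcript of at least 8 kb. It was 0.228 for genes under 2 kb in that heart. In Myh6-ctl replicate 3 the median deviation of the long genes was 0.236. The part of this length pattern in the nesprin values was not tested.

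The control groups differed in line, age and injection. No member was called between Myh6-ctl and EIIa-ctl by edgeR, DESeq2 or limma. Lmna, higher in Myh6-ctl by 0.50 on the log2 scale (adjusted p = 0.357), was the 1 member with an unadjusted p under 0.05, where 1700 of 14990 genes had one. Of all genes tested, 0.0200% were called higher and 0.0133% lower, 0.0334% passed the rule with at least 2-fold, and 17.4% did not overlap, as against 0 members. The change in Myh6-tg minus that in EIIa-tg was also tested, in all 12 hearts. It was 0.47 for Lmna (adjusted p = 0.388), 0.63 for Emd (adjusted p = 0.287) and 0.66 for Sun2 (adjusted p = 0.167), and no member was called by edgeR, DESeq2 or limma. Sun2 was the 1 member with an unadjusted p under 0.05 (0.021). Of all genes 1.65% were called higher, 2.27% lower and 0.622% by the rule with at least 2-fold. Without Myh6-tg replicate 1, Emd was called with 0.85 (adjusted p = 0.0274). The larger changes of these genes in Myh6-tg hearts are therefore not shown to differ from those in EIIa-tg.

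Over the 12 hearts, log2 levels of Emd followed those of Lmna more closely than any other member did (Pearson r = 0.864), and Sun1 (-0.641), Lmnb2 (-0.637) and Syne2 (-0.624) ran in the other direction. The points share groups and scaling. Of 15928 genes, those with the pattern most like Lmna were Sprr1a (r = 0.993), Rtn4 (r = 0.992), Muc15 (r = 0.990), Ctgf (r = 0.988) and Crct1 (r = 0.986). Sprr1a, Muc15 and Crct1 averaged only 0.0174, 0.0347 and 0.113 CPM in EIIa-ctl hearts, where 3 counts made 0.0592 to 0.0735 CPM. Their log2 levels there were set largely by the 0.5 CPM added before the log was taken. Rtn4, which encodes reticulons that shape tubular endoplasmic reticulum, averaged 85.6 CPM in the controls and 278 CPM in the transgenic hearts of the EIIa model, and 151 and 1120 CPM in those of the Myh6 model. Ctgf, a matricellular growth factor gene, averaged 94.3, 372, 213 and 2360 CPM in the same order, with the same order of groups as Lmna.

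Companion genes of the lamina were read from fixed lists. Of 22 other inner membrane, LINC and envelope lumen genes, 18 were tested in EIIa-tg, where 1 rose and 1 fell, and 17 in Myh6-tg, where 2 rose and 0 fell. Of all genes, 17% were called in either direction in EIIa-tg and 18.3% in Myh6-tg, so that these counts were not above that share. Tmem43, which encodes the inner membrane protein LUMA that binds lamins and emerin, had 26.6, 36.1 and 26.3 CPM in EIIa-ctl and 79.8, 53.4 and 106 CPM in EIIa-tg hearts. It had 29.5, 46.3 and 43.3 CPM in Myh6-ctl and 77.2, 171 and 188 CPM in Myh6-tg hearts, so that no groups of a model overlapped. By edgeR it rose by 1.42 on the log2 scale in EIIa-tg (adjusted p = 0.0166) and by 1.87 in Myh6-tg hearts (adjusted p = 0.0138). The call in Myh6-tg was lost without Myh6-ctl replicate 1 (adjusted p = 0.0639). That in EIIa-tg was lost without any 1 of EIIa-ctl replicates 1 and 3 and EIIa-tg replicates 1 and 3 (adjusted p from 0.0523 to 0.0797). Those EIIa-tg fits called at most 0.877% of all genes.

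Tor1a, a lumenal ATPase of the envelope, rose in Myh6-tg from 8.84, 8.98 and 9.39 CPM to 14.8, 18 and 14.9 CPM (log2 fold change 0.81, adjusted p = 0.0218), while its log2 fold change in EIIa-tg was 0.20 (adjusted p = 0.297). Its Myh6-tg call was lost without any 1 of 5 hearts (Myh6-ctl replicates 1, 2 and 3 and Myh6-tg replicates 2 and 3), where the adjusted p was 0.0513 to 0.102. Mlip, which encodes a lamin-interacting protein of muscle, fell in EIIa-tg (log2 fold change -0.39, adjusted p = 0.0464) and was named after its value was seen. It lost its call without any 1 of the hearts other than EIIa-tg replicate 2, with adjusted p from 0.0854 to 0.146. Those fits called 0% to 11.7% of all genes. Mlip was also not called with all 12 hearts in one fit (adjusted p = 0.565), without TMM (log2 fold change -0.20) and on FPKM (-0.11). Its log2 fold change in Myh6-tg was -1.14 (adjusted p = 0.123). The median log2 fold change of this list was -0.07 in EIIa-tg and 0.01 in Myh6-tg hearts.

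Of 6 lamin processing genes, 0 were called in EIIa-tg and 1 fell in Myh6-tg, beside 17% and 18.3% of all genes called in either direction. This was Narf, which encodes a protein that binds prenylated prelamin A, at 81.0, 70.6 and 93.8 CPM in Myh6-ctl and 40.6, 45.9 and 48.8 CPM in Myh6-tg hearts (log2 fold change -0.86, edgeR adjusted p = 0.017). The call was lost without any 1 of Myh6-ctl replicates 1 and 3 and Myh6-tg replicates 2 and 3, with adjusted p from 0.0514 to 0.0716, and without TMM (log2 fold change -0.47, adjusted p = 0.189). The list includes Zmpste24, which cleaves prelamin A, and its median was -0.12 in EIIa-tg and -0.15 in Myh6-tg. Of 6 chromatin partners, among them the BAF gene Banf1, 0 were called in either model, with medians of 0.04 and 0.08.

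Of 9 cytoplasmic partners of nesprins, 1 rose and 1 fell in EIIa-tg and 2 rose in Myh6-tg, again near the 17% and 18.3% of all genes. Des, the gene of the muscle intermediate filament desmin, had 1580, 3170 and 1840 CPM in Myh6-ctl and 12700, 8490 and 8090 CPM in Myh6-tg hearts (log2 fold change 2.16, edgeR adjusted p = 0.0119). This call was lost without Myh6-ctl replicate 1 (adjusted p = 0.0541). In EIIa-tg Des was 1.04 higher on the log2 scale (adjusted p = 0.0193). That call was lost without any 1 of EIIa-ctl replicates 1 and 3 and EIIa-tg replicates 1 and 3 (adjusted p from 0.055 to 0.0874). Those fits called at most 0.877% of all genes. Kif5b, a kinesin heavy chain gene, had 134, 118 and 153 CPM in Myh6-ctl and 252, 193 and 220 CPM in Myh6-tg hearts (log2 fold change 0.72, adjusted p = 0.0399), a call that was lost without any 1 of Myh6-ctl replicates 1, 2 and 3 and Myh6-tg replicates 2 and 3 (adjusted p from 0.0637 to 0.119). Akap6, whose product anchors kinase signalling at the nuclear envelope, fell in EIIa-tg (log2 fold change -0.39, adjusted p = 0.0418) and was named after its value was seen. It was not called without any 1 of the hearts other than EIIa-tg replicate 2 (adjusted p from 0.0545 to 0.145). Those fits called 0% to 11.7% of all genes. Akap6 was also not called with all 12 hearts in one fit (adjusted p = 0.297), without TMM (log2 fold change -0.19) or on FPKM (-0.17 and -0.19). The median of the list was -0.05 in EIIa-tg and -0.03 in Myh6-tg.

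**Figure D4:**
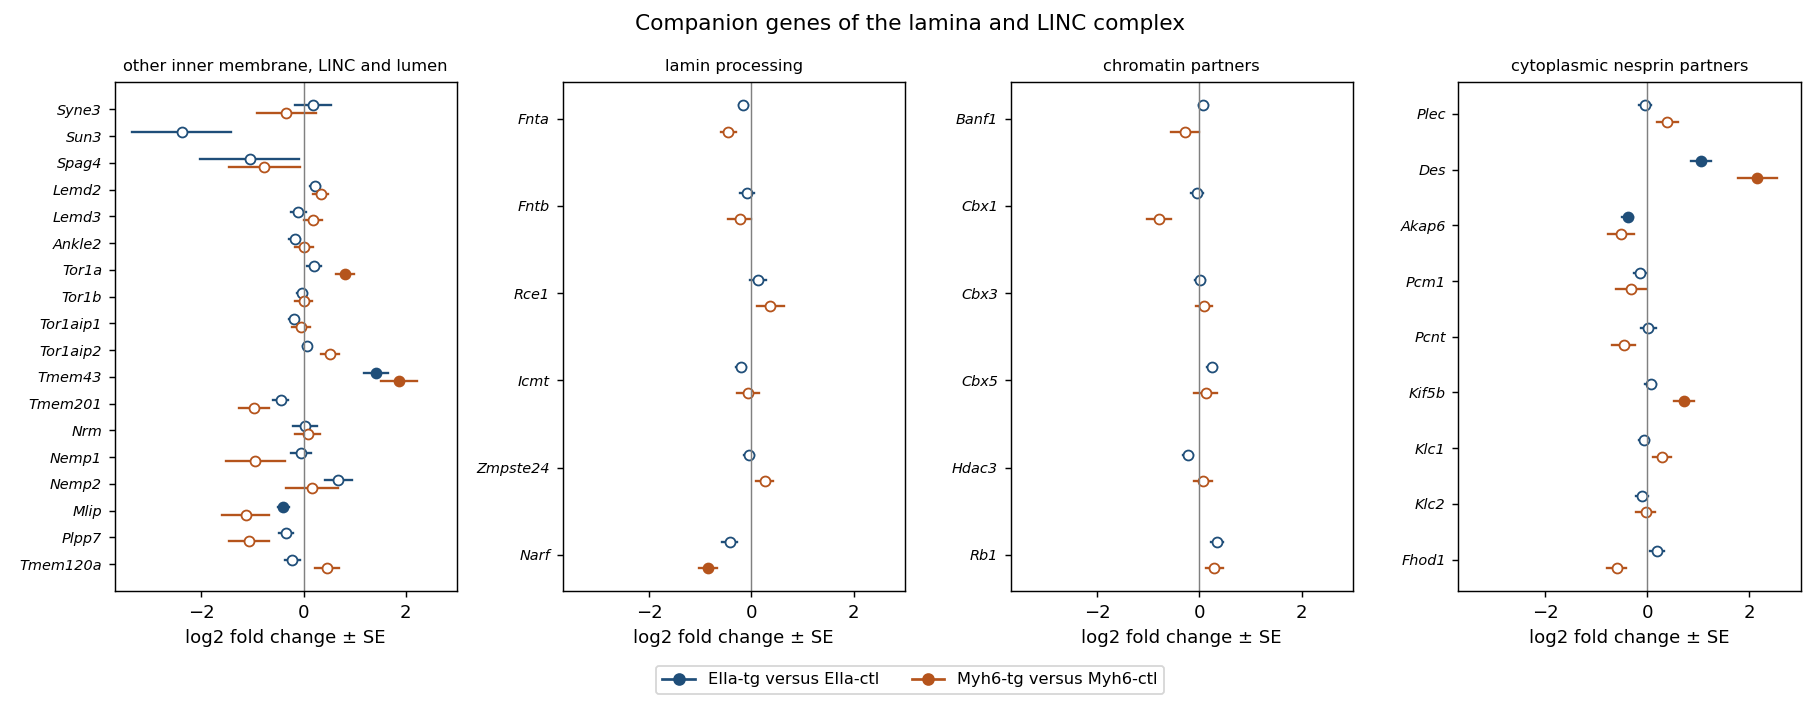
Log2 fold change and SE (x axis) of the companion genes tested (y axis), by list, in EIIa-tg (blue) and Myh6-tg hearts (orange), with filled points for an adjusted p under 0.05. Tmem43 and Des are filled on the right in both models, and most other points are open and lie within 1 of the zero line.

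Markers of heart cell types also differed between groups, and their link to the member values was not tested. Of the cardiomyocyte markers, 1 (Tnnt2) had a positive and 6 a negative log2 fold change in each model. In Myh6-tg it was negative for 1 fibroblast marker (Lum) and positive for 5, and negative for 1 macrophage marker (Adgre1) and positive for 4. Of 7 cardiomyocyte markers, 1 (Ryr2) fell in EIIa-tg and 4 (Myh6, Tnni3, Pln and Myl2) fell in Myh6-tg, and their summed levels were 37600 to 45600 CPM in the EIIa controls, 18600 to 33100 CPM in the EIIa-tg hearts, 29300 to 38800 CPM in the Myh6 controls and 8580 to 28700 CPM in the Myh6-tg hearts. Of 6 fibroblast markers, 2 (Pdgfra, Dcn) rose in EIIa-tg and 3 (Col1a1, Pdgfra, Postn) in Myh6-tg, with sums of 1020 to 1300, 1720 to 2530, 1370 to 1720 and 2170 to 5280 CPM in the same order of groups. All 5 macrophage markers rose in EIIa-tg and 0 were called in Myh6-tg, with sums of 166 to 237, 312 to 423, 304 to 410 and 395 to 729 CPM.

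Of 5 endothelial markers, 3 (Cdh5, Kdr, Tie1) fell in EIIa-tg and 0 were called in Myh6-tg, with sums of 873 to 999, 661 to 753, 535 to 1160 and 510 to 620 CPM. Of the smooth muscle markers 1 of 5 (Myh11) fell in Myh6-tg, with sums of 906 to 1410 CPM over all hearts. The lymphocyte markers had at most 3.23 CPM in sum, and 1 of 5 (Ms4a1) was called lower in Myh6-tg at these low levels. No dividing cell marker of 8 was called, with sums of 6.46 to 36.5 CPM. No marker was at 0 in a whole group. In bulk hearts fewer cells of a type and less RNA per cell cannot be told apart, and the part of cell composition in the rise of Lmna and Emd was not tested.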

How the data were processed

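Heart RNA libraries were made with a NEBNext Ultra kit and sequenced as paired-end reads. The authors mapped reads to GRCm38 with Hisat2 (HISAT2 2.0.4 and StringTie 2.2.1 in the submitters' notes, which also list GRCm39) and deposited counts, whole reads per gene without normalization, and FPKM values, scaled to transcript length and library. The counting program and its use of strand are not given in the sources used here. Hearts were grouped by title, since genotype labels of EIIa-tg replicates 2 and 3 differ. Nothing states separate litters, so hearts of a group may not be independent. The p-values set the difference between groups against the spread between these hearts.

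Counts were tested in R 4.3.3 with edgeR 4.0.16 (filterByExpr, TMM, glmQLFit and glmQLFTest, Benjamini-Hochberg over all genes tested) in the 6 hearts of each comparison, and in 12 for the difference of changes. A call is an adjusted p under 0.05, with the study's rule of an adjusted p under 0.01 and at least 2-fold beside it. DESeq2 1.42.0 and limma 3.58.1 gave alternatives. Intervals are 95% and scripts were tested on simulated data. Members, lists and tests were chosen with earlier results of these data known. Named were all members, companion genes called in Myh6-tg, and the 5 genes most correlated with Lmna. Deviations of same-numbered hearts from group means correlated by 0.27, 0.212 and 0.229 between the Myh6 groups. They correlated by 0.124, -0.116 and -0.0978 between the EIIa groups. Between Myh6-ctl and EIIa-ctl, which differ in line and age, they correlated by 0.141, 0.0648 and -0.0821. No label states a pairing, and replicate 1 of each group was the heart with Y-linked counts, so a pairing is not shown. Positions came from GENCODE M21, in which 22022 of 25171 loci were found, and promoters from RefSeq (GRCm38.p6). Figures were drawn with matplotlib 3.10.9.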

Additional observations from a re-analysis of the deposited data

How the results depend on the processing

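In EIIa-tg the count of 2 called members was 1 with all 12 hearts in one fit, 0 with the replicate number as a block and 0 by the rule with an adjusted p under 0.01 and at least 2-fold, and it ranged from 0 to 2 with a heart left out; the cause was not tested. In Myh6-tg the 2 became 1 by that rule and ranged from 1 to 2 with a heart left out. The difference of changes ranged from 0 to 1, and the control comparison stayed at 0. Of all genes, the main EIIa-tg fit called 17%, or 0% by the rule with at least 2-fold, and the 12-heart fit called 1.43%. Fits with an EIIa heart left out called 0% to 26.6% of all genes in EIIa-tg. In Myh6-tg the main fit called 18.3% of all genes, and fits with a heart left out called 5.01% to 26.7%. With the replicate block, edgeR adjusted p in EIIa-tg was 0.0631 for Lmna and 0.105 for Emd, in a fit that called 1 gene in all. In Myh6-tg 3 members were called, with Sun2 added, in a fit that called 20.9% of all genes. No label pairs the hearts of either model. In the EIIa model 1 of 3 pairs of same-numbered hearts correlated best with each other. The block also added Mlip (log2 fold change -1.34, adjusted p = 0.0384) in Myh6-tg and changed no other Myh6-tg call of a named gene.

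Without TMM the median of all genes moved from 0.02 to 0.21 in EIIa-tg and from 0.03 to 0.43 in Myh6-tg, and calls from 1289 higher and 1238 lower to 2531 and 642, and from 1370 and 1435 to 3153 and 854. These shifts turned values that were not called. With library totals, limma on log2(FPKM + 1) and on log2(FPKM + 0.1), EIIa-tg values became 0.19, 0.18 and 0.19 for Lbr and 0.18, 0.17 and 0.18 for Sun2, and 0.072 for Syne1 with totals. In Myh6-tg they became 0.33, 0.27 and 0.30 for Lbr, 0.047, 0.072 and 0.14 for Lmnb1, 0.15, 0.15 and 0.16 for Sun1, and 0.0078 for Lmnb2 with totals. Syne1 in Myh6-tg was -0.00097 with DESeq2, -0.0012 with RLE factors and -0.020 with the mt- genes removed. With a heart left out, EIIa-tg values ranged from -0.086 to 0.12 for Lbr, -0.12 to 0.050 for Sun2 and -0.026 to 0.078 for Tmpo, and Myh6-tg values from -0.016 to 0.11 for Tmpo, -0.40 to 0.39 for Syne1 and -0.20 to 0.049 for Lbr. Library totals and the bias-adjusted quasi-likelihood were chosen after seeing the data. With 3 hearts a group, the intervals of the B-type lamin and nesprin genes leave changes of this size undecided.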

Other observations

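The counts and FPKM of a gene did not keep a constant ratio between hearts. The cause was not tested. For Lmna, CPM without TMM per unit of FPKM ranged from 2.23 in Myh6-tg replicate 1 to 3.03 in EIIa-ctl replicate 2; the Myh6-tg mean of 2.32 was below those of the other groups (2.63 to 2.80). For Syne2, EIIa-tg replicates 1 and 3 had 33.3 and 29 CPM but 6.48 and 2.58 FPKM.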
